A study of Mus musculus with 46 samples.

Results

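The comparison described here set liver expression after sunscreen with nanoparticles of zinc oxide (nano ZnO) against liver expression after sunscreen with micrometre-sized zinc oxide (micro ZnO). It used the 23 of the 46 arrays of the series whose titles name 1 of these sunscreens, 12 nano ZnO and 11 micro ZnO arrays, each from the liver of 1 mouse. All mice were SKH:QS, a hairless laboratory stock, and came from separate experiments on virgin mice (6 micro ZnO, 6 nano ZnO) and on pregnant mice of about day 17 of gestation (5 micro ZnO, 6 nano ZnO). Every one of these mice was fitted with a collar that limits licking, was treated 6 times over 4 days with a sunscreen whose zinc oxide carried the stable zinc isotope of mass 68, and was killed on day 5. The remaining 23 mice were left untreated (6 virgin, 5 pregnant) or received the sunscreen base with no particles, called formulation (6 virgin, 6 pregnant). The labels give neither age nor zinc dose. The question asked was what size of difference between the particle sizes the pooled data leave possible.

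The liver answers a rise in available zinc through MTF-1, a transcription factor that senses zinc and switches on the metallothionein genes Mt1 and Mt2, whose small cysteine-rich proteins bind zinc and copper, and the exporter gene Slc30a1. Metallothionein is also switched on by glucocorticoids and by interleukin-6, so its transcripts follow inflammation and handling as well as zinc. The same cytokine drives the acute-phase response, in which hepatocytes secrete serum amyloid A, orosomucoid and other plasma proteins. The particle-free arm shares the base, the collar and the handling with both particle arms, and nano minus micro compares mice that differ, by their labels, only in the size of the particle.

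Values are the authors' RMA log2 intensities, and a difference of 1 on this scale is 2-fold. Arrays of the same experiment correlated at 0.981 to 0.989 in virgin mice and 0.975 to 0.990 in pregnant mice, and no pair held identical values. Albumin lay at the 99.98th percentile of signal in all 4 groups, as fits liver. On the first principal component of the pregnant arrays, which held 31.2% of the variance, micro ZnO replicates 3 and 4 lay apart at 46.8 and 25.6, against -18.1 to 5.92 for the other 9. Many of the results that rest on these 2 mice are given with and without them. The median and the interquartile range of an array and its position on the first component gave exact two-sided permutation p values of 0.173 to 0.662 for nano against micro over 8 tests (adjusted p of at least 0.499). Replicates are labelled as biological, and the labels tie none to a litter or a day. The number of arrays limits the precision.

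Pooled over both experiments, no transcript was called different between nano and micro ZnO. With the experiment as a block, limma called 0 of 23410 probe sets at an adjusted p under 0.05 (0% called), and the smallest adjusted p was 0.755. At an unadjusted p under 0.05 there were 1188, or 5.07%, of which 655 were higher and 533 lower after nano ZnO. This pooled count was 2081 without pregnant micro ZnO replicates 3 and 4 and 1865 with array weights, with 0 called in either. With 1 array left out it ran from 942 (without virgin nano ZnO replicate 4) to 1734 (without pregnant nano ZnO replicate 2). The comparison within virgin mice gave 0 calls (0% called) with 755 at an unadjusted p under 0.05. That within pregnant mice gave 0 (0% called) with 1146. The test of whether the difference itself changed with pregnancy also gave 0 (0% called) with 731.

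A missing call does not show that the particles act alike, so the width of the interval carries the answer. The pooled 95% interval had a median half-width of 0.15 on the log2 scale (10.7%), against 0.20 for the virgin and 0.21 for the pregnant difference. The whole interval lay inside 1.5-fold in either direction for 23088 probe sets (98.6%), inside 2-fold for 23366 (99.8%), and inside 1.2-fold for 18296 (78.2%). Among the 14046 probe sets above the 40th percentile of mean signal, 98.3% were inside 1.5-fold. Among the dimmer 9364 it was 99.2%, but signal near background is compressed, and there a narrow interval bounds the signal more than the transcript. Widened so that all 23410 intervals hold together (Bonferroni), the intervals of 17744 (75.8%) stayed inside 1.5-fold and of 22726 (97.1%) inside 2-fold.

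**Figure D1:**
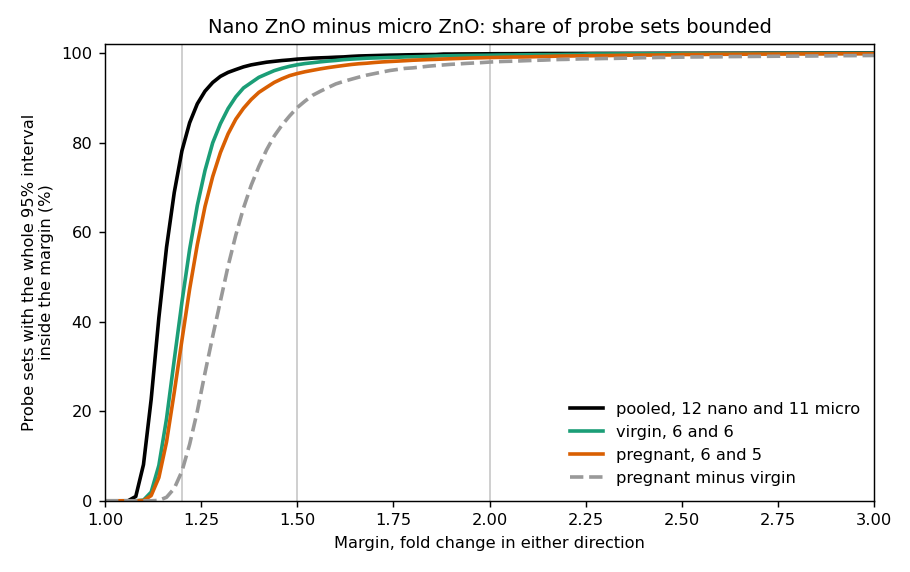
Percentage of the 23410 probe sets (vertical axis) with the whole 95% interval of nano minus micro inside a fold change (horizontal axis, either direction). Curves stand for the pooled comparison, each experiment and the difference between experiments, with spreads taken from all 23 arrays. At 1.5-fold (middle grey line) the pooled curve stands at 98.6%, virgin at 97.4%, pregnant at 95.4% and the difference between experiments at 87.8%.

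The pooled value is an average over the experiments, and opposite differences in virgin and pregnant mice would cancel in it. The intervals of each experiment came from 1 model with a spread per transcript shared by all 23 arrays. Those of both experiments were inside 1.5-fold for 22197 probe sets (94.8%) and inside 2-fold for 23143 (98.9%). Spreads can differ, as for 18 cytokine and NF-kB feedback genes. Their mean level had an SD of 0.03 in virgin and 1.08 in pregnant micro ZnO mice. Where pregnant mice spread more, their intervals are too narrow and the virgin ones too wide. For 891 probe sets the pooled interval was inside 1.5-fold while at least 1 experiment's was not. The 2 experiments share no mice, and their differences correlated at r = 0.10 across probe sets, which are not independent of each other, with 55.3% of the same sign. Of the 100 probe sets with the smallest p in virgin mice, 52 had the same sign in pregnant mice, and of the 100 with the smallest p in pregnant mice, 59 had the same sign in virgin mice. Only 1 probe set stood in both sets of 100.

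**Figure D2:**
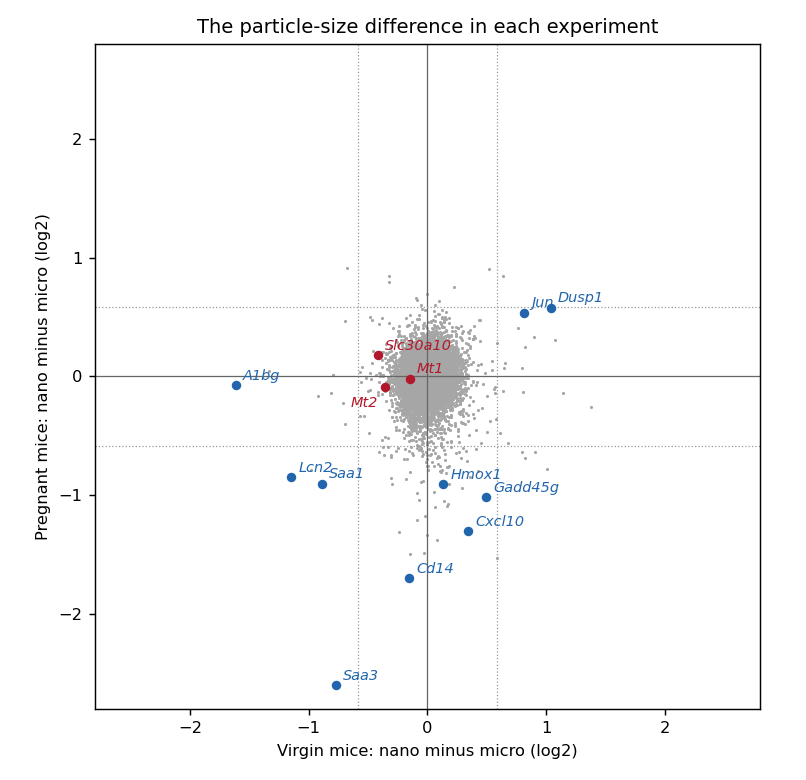
Nano minus micro on the log2 scale in virgin mice (horizontal) against pregnant mice (vertical), 1 grey point for each of 23410 probe sets, with named zinc genes in red and other named genes in blue. Dotted lines mark 1.5-fold; Saa3 lies lowest at -0.77 and -2.60, A1bg lies farthest left at -1.61 and -0.08, and Mt1 lies inside the central cloud.

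Zinc-handling genes had intervals of about the same width as other genes. Of 29 genes measured in 3 lists (10 zinc exporters, 14 zinc importers and 5 metallothionein or MTF-1 genes), 29 had a pooled interval inside 1.5-fold and 19 inside 1.2-fold. By sign, 13 were above and 16 below 0, and 1 importer had an unadjusted p under 0.05, or 0 to 2 importers with 1 array left out. The list medians were -0.0033, -0.02 and -0.06, and the median half-widths 0.15, 0.16 and 0.13. Over 19938 genes the median was 0.0088 and the half-width 0.15, with 98.8% inside 1.5-fold and 78.7% inside 1.2-fold. With dim probe sets left out, 8 exporters, 11 importers and 5 metallothionein or MTF-1 genes remained, all inside 1.5-fold.

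Mt1 in virgin mice ran from 11.69 to 12.51 with a median of 11.88 after micro ZnO, and from 11.48 to 12.11 with a median of 11.93 after nano ZnO. In pregnant mice Mt1 read 12.17, 12.19, 12.49, 12.29 and 12.06 in the 5 micro ZnO mice, and 12.03 to 12.32 with a median of 12.25 after nano ZnO. The groups overlapped in both experiments. The pooled Mt1 difference was -0.09 ± 0.08 (SE), with a 95% interval from 1.2-fold lower to 1.06-fold higher after nano ZnO. Untreated mice had a mean of 10.45 ± 0.53 (SD, n = 6) when virgin and 11.72 ± 0.37 (n = 5) when pregnant, and formulation mice 12.16 ± 0.38 and 12.24 ± 0.17 (n = 6 each). The lowest virgin particle-arm value of Mt1 was therefore above the highest untreated value of 11.12, while the means of the particle arms lay within 1 SD of the particle-free mean.

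Mt2, the second of the inducible metallothioneins, had the wider interval. After micro ZnO it ran from 11.91 to 12.99 (median 12.11) in virgin mice and read 11.86, 12.07, 12.60, 12.23 and 11.80 in pregnant mice. After nano ZnO it ran from 11.42 to 12.32 (median 11.91) in virgin and from 11.73 to 12.14 (median 12.08) in pregnant mice. Nano ZnO replicates 1, 2 and 3 lay below every virgin micro ZnO mouse, and the other 3 overlapped with them. The pooled Mt2 difference was -0.23 (95% interval -0.49 to 0.03, unadjusted p = 0.0756), which reaches 1.40-fold lower. Without pregnant micro ZnO replicates 3 and 4 it was -0.17 (-0.44 to 0.10). Mtf1 itself stood at -0.06 (-0.19 to 0.07).

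Slc30a1, the MTF-1 target that moves zinc out of the cell, ran from 7.60 to 8.32 after micro ZnO and 7.67 to 7.98 after nano ZnO in virgin mice. In pregnant mice it read 7.51, 7.43, 7.11, 7.54 and 7.64 after micro ZnO and 7.15 to 8.0 after nano ZnO. The groups overlapped in both experiments, with 2 pregnant nano ZnO mice above every micro ZnO mouse, and the pooled Slc30a1 difference of 0.02 had an interval from 1.12-fold lower to 1.16-fold higher. Slc30a10, which exports manganese and belongs to the same family, had the widest interval of the exporters. It ran from 6.88 to 8.02 (median 7.79) after micro ZnO and from 6.85 to 7.52 (median 7.20) after nano ZnO in virgin mice. The pooled Slc30a10 difference was -0.13 (-0.50 to 0.23), and without pregnant micro ZnO replicates 3 and 4 it was -0.22 (-0.61 to 0.16), whose lower end passes 1.5-fold.

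Among importers, Slc39a4, a zinc transporter of absorptive membranes, had virgin medians of 6.81 after micro ZnO and 6.66 after nano ZnO, with ranges of 6.34 to 6.90 and 6.33 to 6.93. Pregnant micro ZnO mice read 6.26, 6.27, 6.60, 6.15 and 6.29, and pregnant nano ZnO mice ran from 5.99 to 6.38. The pooled Slc39a4 difference was -0.10 (-0.26 to 0.05). Slc39a14, the transporter of zinc and non-transferrin iron that inflammation induces in hepatocytes, differed by -0.19 (-0.42 to 0.04) and by -0.09 (-0.31 to 0.13) without the 2 pregnant mice. Slc39a7, a zinc channel of the endoplasmic reticulum, was the importer with the smallest unadjusted p (0.0448, limma adjusted p = 0.909), with a difference of -0.16, and Slc39a5 had the highest difference at 0.14 (-0.04 to 0.33).

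**Figure D3:**
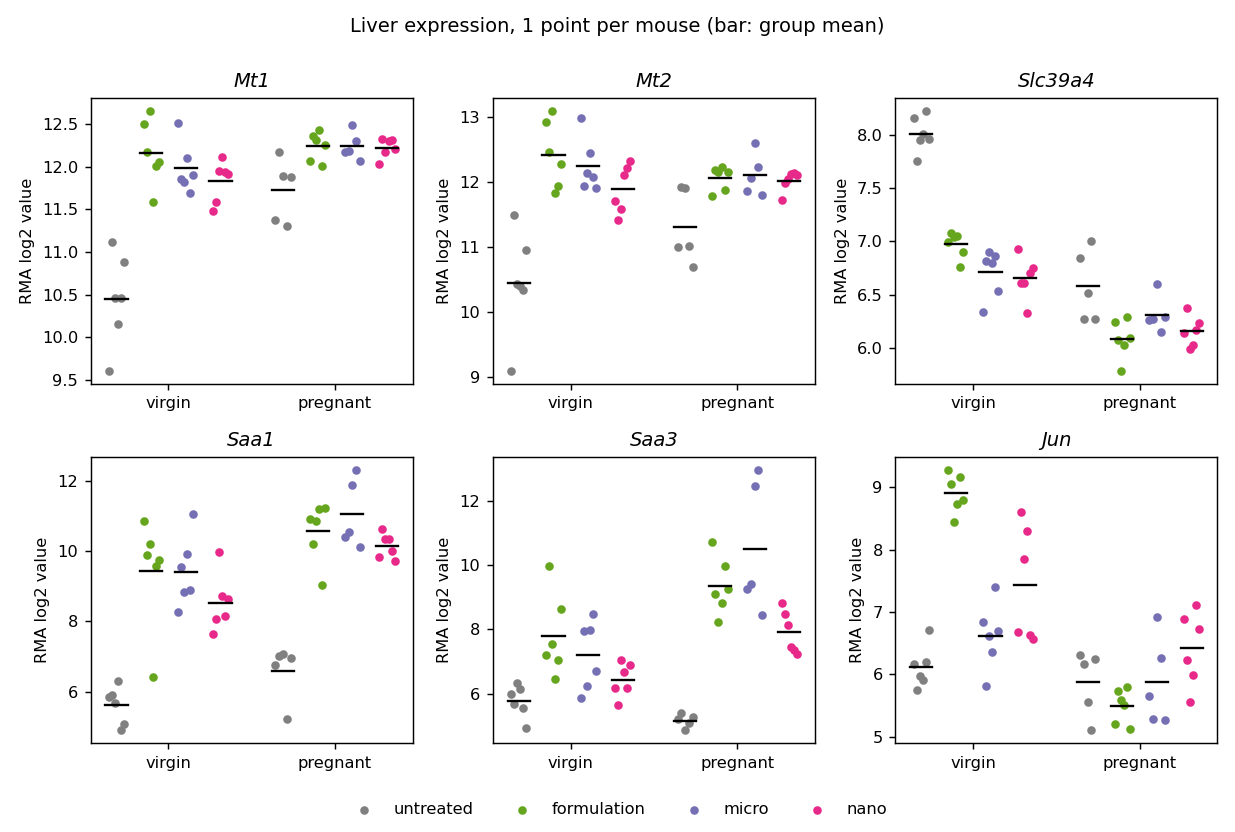
RMA log2 values (vertical axis) of Mt1, Mt2, Slc39a4, Saa1, Saa3 and Jun, 1 point for each of the 46 mice, grouped by experiment and arm, with a bar at the mean of each group. Micro and nano points overlap for each gene in virgin mice; in pregnant mice 2 micro points of Saa3, at 12.47 and 12.96, stand above every other.

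Acute-phase genes nearly all lay on 1 side, and their median half-width was 0.27 against 0.15 over all genes. Of 30 measured acute-phase genes, 29 had a pooled difference below 0, 11 of them with an unadjusted p under 0.05 and none with an adjusted p under 0.05 (0% called over all probe sets). Over all genes 2.20% had an unadjusted p under 0.05 with a lower value. The list median was -0.23 pooled, -0.17 in virgin and -0.27 in pregnant mice, and 18 of the 30 intervals lay inside 1.5-fold. Without pregnant micro ZnO replicates 3 and 4, 24 of the 30 were below 0, 9 of them with an unadjusted p under 0.05, and the median was -0.07 (0.0070 in pregnant mice alone). Acute-phase genes are known to be induced together and are not independent of each other.

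Saa1, a serum amyloid A gene, ran from 8.26 to 11.05 (median 9.23) after micro ZnO and from 7.63 to 9.97 (median 8.40) after nano ZnO in virgin mice. In pregnant mice Saa1 read 10.42, 10.55, 11.90, 12.32 and 10.11 after micro ZnO and ran from 9.74 to 10.63 (median 10.18) after nano ZnO. Of the 6 nano ZnO mice, 3 in each experiment lay below every micro ZnO mouse. The pooled Saa1 difference was -0.90 ± 0.29 (SE; 95% interval -1.50 to -0.30; unadjusted p = 0.00497, limma adjusted p = 0.909), so the data allow it to be up to 2.82-fold lower. Without the 2 pregnant mice it was -0.62 (-1.19 to -0.05). Untreated mice averaged 5.61 (SD 0.53, n = 6) when virgin and 6.60 (SD 0.79, n = 5) when pregnant, and their highest values of 6.29 and 7.07 lay below every particle-arm mouse of their experiment. Saa2, whose sequence is so close to Saa1 that probes may share signal, differed by -0.89 (-1.55 to -0.23), and by -0.60 (-1.23 to 0.04) without the 2 mice.

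Saa3, the serum amyloid A gene that macrophages and adipose tissue also express, had the largest pooled difference of all tested probe sets and 1 of the 5 widest intervals. Pregnant micro ZnO mice read 9.25, 9.43, 12.47, 12.96 and 8.45, and pregnant nano ZnO mice ran from 7.22 to 8.83 (median 7.80). In virgin mice Saa3 ran from 5.87 to 8.49 (median 7.32) after micro ZnO and from 5.64 to 7.05 (median 6.43) after nano ZnO. Replicates 3 and 4 stood far above the other pregnant micro ZnO mice, and 4 of the 6 pregnant nano ZnO mice lay below all 5 micro ZnO mice. The pooled Saa3 difference was -1.64 (-2.58 to -0.70; unadjusted p = 0.00132, limma adjusted p = 0.909), and without the 2 mice it was -0.91 (-1.50 to -0.32).

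Lcn2, which encodes the iron-siderophore binding protein lipocalin-2, ran from 9.14 to 11.09 (median 9.45) after micro ZnO and from 7.47 to 9.38 (median 8.65) after nano ZnO in virgin mice. In pregnant mice it read 10.32, 10.76, 13.01, 13.02 and 10.61 after micro ZnO and 10.27 to 11.27 after nano ZnO. In virgin mice 5 of 6 nano ZnO values were below every micro ZnO value, whereas in pregnant mice 1 of 6 was. The pooled Lcn2 difference was -1.0 (-1.61 to -0.39), and -0.64 (-1.15 to -0.12) without the 2 mice. Orm2, an orosomucoid (alpha-1-acid glycoprotein) gene, differed by -0.44 (-0.72 to -0.16), and by -0.36 (-0.64 to -0.07) without them. Orosomucoid genes are near-identical copies, and their probe sets may share signal.

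Inflammatory mediators had a median below 0 in pregnant mice and near 0 in virgin mice, and the change between experiments was not called for any probe set. Of 18 measured cytokine and NF-kB feedback genes, 17 were below 0 pooled and 2 had an unadjusted p under 0.05, or 1 to 5 with 1 array left out. The median was -0.27 pooled, 0.04 in virgin and -0.59 in pregnant mice, and 7 intervals lay inside 1.5-fold. Without pregnant micro ZnO replicates 3 and 4, 6 of the 18 were below 0, the median was 0.06, and 16 lay inside 1.5-fold. Interferon-stimulated genes followed the same pattern, with 14 of 15 below 0 and a median of -0.15, against 7 of 15 and 0.0016 without the 2 mice.

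Cxcl10, a chemokine gene that interferon induces, read 4.77, 4.56, 10.65, 6.36 and 4.88 in pregnant micro ZnO mice and ran from 4.24 to 6.74 after nano ZnO. In virgin mice it ran from 4.36 to 4.73 and from 4.32 to 5.53. A single mouse, pregnant micro ZnO replicate 3, lay far above the rest, and the pooled Cxcl10 interval ran from 2.72-fold lower to 1.47-fold higher. Without the 2 mice the difference was 0.28 (-0.15 to 0.72), of the opposite sign. Cd14, the lipopolysaccharide co-receptor, read 3.90, 4.13, 9.28, 8.09 and 4.00 in pregnant micro ZnO mice and 3.89 to 5.38 after nano ZnO. Its pooled difference of -0.89 (-1.86 to 0.08) became -0.03 (-0.37 to 0.32) without them.

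Markers of other liver cell types were measured beside these genes. In bulk liver, fewer cells of a type and less RNA per cell cannot be told apart. The mean level of 16 neutrophil markers ran from 4.30 to 4.67 in virgin micro ZnO and from 4.48 to 5.47 in virgin nano ZnO mice, and from 5.06 to 6.29 and 4.71 to 6.26 in the pregnant arms. Of the 16, 8 were below 0 pooled, or 2 without the 2 pregnant micro ZnO arrays. Their median difference was 0.22 in virgin and -0.38 in pregnant mice, and -0.04 in pregnant mice without the 2 micro ZnO arrays. Of these markers 10 lay inside 1.5-fold and 1, Lcn2, which stands in both lists, had an unadjusted p under 0.05. Kupffer cell and macrophage markers had medians of 0.18 in virgin and -0.10 in pregnant mice over 17 genes, with 7 below 0 pooled and 12 inside 1.5-fold. Without pregnant micro ZnO replicates 3 and 4 the pregnant median was -0.02, with 1 of 17 below 0 pooled and 16 inside 1.5-fold. The list had mean levels of 5.76 to 6.23 and 5.86 to 6.57 in virgin micro and nano ZnO mice and 6.07 to 6.86 and 5.79 to 6.34 in the pregnant arms. Among them Adgre1 (F4/80) read 5.73, 5.74, 7.47, 7.73 and 5.89 in pregnant micro ZnO mice and 5.28 to 5.94 after nano ZnO. The pooled Adgre1 difference was -0.46 to -0.20 with 1 array left out, while 10 of the 17 markers were above 0 pooled. The part of these cells in the acute-phase and cytokine values was not tested. Of 12 hepatocyte and 21 endothelial markers, 12 and 21 were inside 1.5-fold, as were 15 of 15 stellate cell and 15 of 15 lymphocyte markers. These counts are near the share of all genes, 98.8%. The lymphocyte markers were dim, with mean levels of 3.95 and 3.98 in the virgin arms and 3.32 and 3.35 in the pregnant arms. Their intervals bound the signal more than the transcripts.

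**Figure D4:**
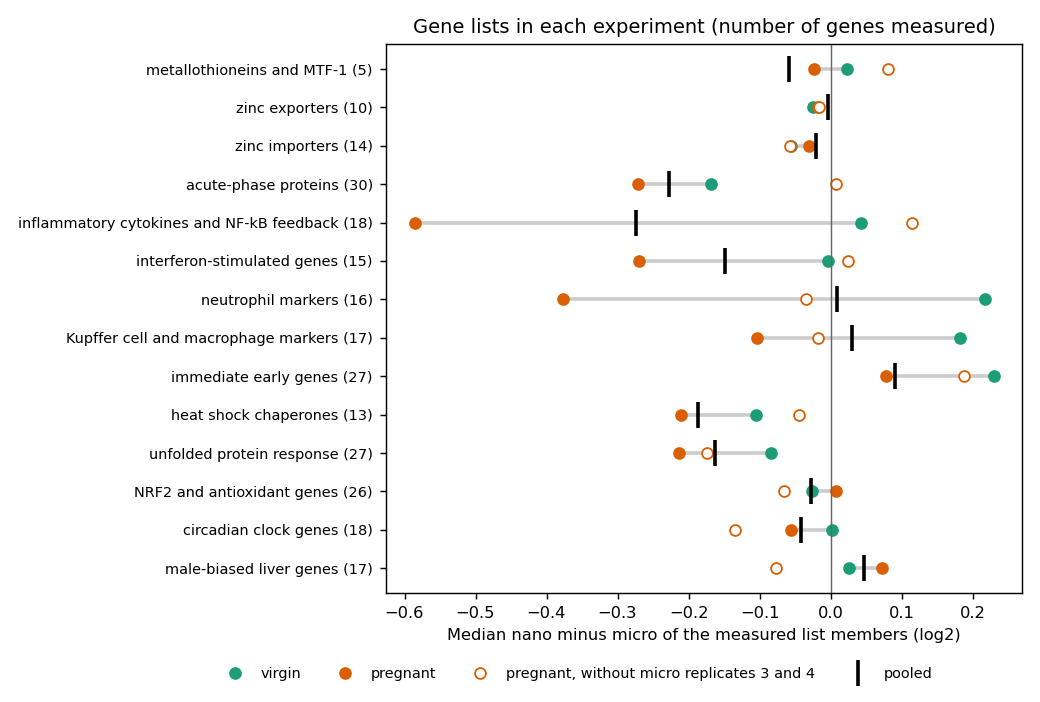
Median nano minus micro (log2, horizontal axis) over the measured genes of 14 lists, for virgin mice (green), pregnant mice (orange), pregnant mice without micro ZnO replicates 3 and 4 (open) and the pooled comparison (black bar). For cytokines the pregnant median moves from -0.59 to 0.11 when the 2 arrays are left out, and for acute-phase proteins from -0.27 to 0.0070, while the virgin medians are 0.04 and -0.17.

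Immediate early genes, which encode transcription factors and feedback phosphatases switched on within minutes of a stimulus, lay mostly above 0. Of 27 measured, 22 were higher after nano ZnO, 8 with an unadjusted p under 0.05 and 0 called. Over all genes 2.91% had an unadjusted p under 0.05 with a higher value. The list median was 0.09 pooled, 0.23 in virgin and 0.08 in pregnant mice, and 17 of 27 lay inside 1.5-fold. Without pregnant micro ZnO replicates 3 and 4, 12 of the 27 had an unadjusted p under 0.05 with a higher value and the median was 0.13. The count was 5 without virgin micro ZnO replicate 2, 5 without virgin nano ZnO replicate 4 and 5 with array interquartile range as a covariate.

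Jun, a subunit of the AP-1 transcription factor, ran from 5.82 to 7.41 (median 6.66) after micro ZnO and from 6.57 to 8.60 (median 7.26) after nano ZnO in virgin mice. Pregnant micro ZnO mice read 5.66, 5.29, 6.91, 6.26 and 5.28, and pregnant nano ZnO mice ran from 5.56 to 7.11. In virgin mice 3 nano ZnO mice (replicates 2, 3 and 4) lay above every micro ZnO mouse and the other 3 did not. The pooled Jun difference was 0.68 (0.16 to 1.2; unadjusted p = 0.0123, limma adjusted p = 0.909). Dusp1, a phosphatase that switches off MAP kinases, had a pooled difference of 0.82 (0.22 to 1.42), up to 2.68-fold higher. Its virgin nano ZnO values ran from 7.97 to 9.93 against 6.94 to 8.41 after micro ZnO. Pregnant Dusp1 ran from 6.04 to 9.11 after nano ZnO, around micro ZnO values of 7.28, 7.34, 6.46, 6.88 and 6.49. Fos, which partners Jun in AP-1, differed by 0.35 (0.05 to 0.66).

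Gadd45g, a stress-induced gene, had differences of opposite sign in the experiments, which the pooled value averages. In virgin mice it ran from 6.4 to 7.28 after micro ZnO and from 7.04 to 7.88 after nano ZnO. Pregnant micro ZnO mice read 7.98, 7.09, 7.52, 7.36 and 7.30, and pregnant nano ZnO mice ran from 5.69 to 7.34. In virgin mice 4 of 6 nano ZnO mice lay above every micro ZnO mouse, and in pregnant mice 5 of 6 lay below. The Gadd45g difference was 0.50 (0.05 to 0.94) in virgin, -1.02 (-1.49 to -0.55) in pregnant and -0.22 (-0.66 to 0.22) pooled. The test of the change between experiments gave an unadjusted p of 5.81e-05 and a limma adjusted p of 0.680, which is not a call.

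Protein-folding genes lay mostly below 0, and 0 were called. Of all genes, 2.20% had an unadjusted p under 0.05 with a lower value, and 98.8% lay inside 1.5-fold. Members of a list may move together and are not independent of each other. Of 13 heat shock chaperone genes 11 were lower, 5 with an unadjusted p under 0.05, with a median of -0.19 and 9 inside 1.5-fold. Of 27 genes of the unfolded protein response, the program that expands folding capacity in the endoplasmic reticulum, 19 were lower, 5 with an unadjusted p under 0.05, with a median of -0.16 and 23 inside 1.5-fold. Without pregnant micro ZnO replicates 3 and 4, each list had 2 lower genes at an unadjusted p under 0.05 and the medians were -0.09 and -0.14. These counts moved with single mice. The heat shock count of 5 was 8 without virgin nano ZnO replicate 6 and 3 without pregnant micro ZnO replicate 3 or 4. The unfolded protein response count of 5 was 13 without virgin nano ZnO replicate 6, 11 without virgin micro ZnO replicate 1 or pregnant nano ZnO replicate 2, and 8 without pregnant micro ZnO replicate 5. It was 2 without virgin nano ZnO replicate 5, pregnant micro ZnO replicate 1 or pregnant nano ZnO replicate 5, and 1 without virgin micro ZnO replicate 6, pregnant micro ZnO replicate 3 or pregnant nano ZnO replicate 1. Hsph1, an Hsp70 co-chaperone, ran from 7.19 to 8.43 and from 6.99 to 8.28 in virgin micro and nano ZnO mice. It read 7.29, 6.89, 8.07, 8.47 and 7.36 in pregnant micro ZnO mice and ran from 6.38 to 7.30 after nano ZnO. In pregnant mice 5 of the 6 nano ZnO values lay below every micro ZnO value. The pooled Hsph1 difference was -0.57 (-0.93 to -0.20), and -0.35 (-0.66 to -0.04) without them. Hyou1, a chaperone of the endoplasmic reticulum, differed by -0.42 (-0.80 to -0.05).

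Oxidative-stress genes, like nearly all genes (98.8%), were bounded inside 1.5-fold, with 1 exception. Of 26 genes of the NRF2 and antioxidant list, 25 lay inside 1.5-fold and the median was -0.03, with 15 below 0. Nqo1, a quinone reductase and a standard NRF2 target, differed by -0.10 (-0.25 to 0.06), and Gclc, the catalytic subunit of the rate-limiting enzyme of glutathione synthesis, by 0.13 (-0.15 to 0.42). The exception was Hmox1, heme oxygenase 1, at -0.36 (-0.83 to 0.11). Pregnant micro ZnO mice read 6.66, 6.44, 8.39, 8.42 and 6.31 for Hmox1, with replicates 3 and 4 above all others, and nano ZnO mice ran from 6.04 to 6.81. Without those 2 the Hmox1 difference was 0.03 (-0.22 to 0.27).

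Clock genes had wide intervals, and mice of the same arm differed widely. Of 18 measured, 13 lay inside 1.5-fold, 12 were below 0, none had an unadjusted p under 0.05, and the median half-width was 0.37 against 0.15 over all genes. Ciart, a circadian repressor, ran from 6.29 to 8.66 and from 6.53 to 7.88 in virgin micro and nano ZnO mice. In pregnant mice Ciart read 5.30, 5.99, 6.79, 6.88 and 7.11 after micro ZnO and ran from 4.27 to 7.96 after nano ZnO, so that 3 nano ZnO mice lay above and 3 below all 5. Its pooled interval ran from -1.04 to 0.48, and that of Arntl (BMAL1), the activator of the clock, from -0.43 to 0.71. The hour of collection of each mouse is not in the labels, and its part was not tested.

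Male-biased liver genes, which depend on the pulse pattern of growth hormone, had small pooled differences. The share of all genes inside 1.5-fold was 98.8%. Of 17 measured, 16 lay inside 1.5-fold, 3 were below 0 (2 to 6 with 1 array left out) and the median was 0.05, while without the 2 pregnant micro ZnO mice 9 were below 0 and the median was -0.0085. Elovl3, a fatty acid elongase, was the single member with an unadjusted p under 0.05, at -0.25 (limma adjusted p = 0.909). Mup3, a major urinary protein, had a pooled interval from 1.27-fold lower to 1.35-fold higher. Slco1a1, an organic anion transporter, was the exception, at 0.29 (-0.42 to 1.00), and in pregnant mice it varied from 2.47 to 5.22 after micro ZnO and from 2.35 to 6.14 after nano ZnO. With 1 array left out the Slco1a1 difference ran from 0.11 (without pregnant micro ZnO replicate 4) to 0.48 (without pregnant nano ZnO replicate 1). With dim probe sets left out, 11 male-biased genes remained, all inside 1.5-fold.

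A1bg, a plasma glycoprotein gene that is female-biased in mouse liver, had the smallest p of the virgin comparison. Virgin A1bg ran from 8.67 to 10.93 (median 9.62) after micro ZnO and from 7.02 to 9.72 (median 8.04) after nano ZnO, and 5 of 6 nano ZnO mice lay below every micro ZnO mouse. The virgin difference was -1.61 (-2.34 to -0.88; unadjusted p = 0.000118, limma adjusted p = 0.920). Left without virgin nano ZnO replicate 3, the highest of its arm, A1bg was the single probe set called in that comparison. In pregnant mice A1bg read 11.85, 11.51, 11.03, 11.70 and 11.44 after micro ZnO and 10.89 to 11.75 after nano ZnO, a difference of -0.08 (-0.84 to 0.69). The pooled value was -0.88 (-1.48 to -0.28). A1bg does not stand for its list. Of 12 female-biased genes measured, 6 were above and 6 below 0 pooled, with a median of 0.0010. At an unadjusted p under 0.05, 3 were lower (2.20% of all genes) and 0 higher, and 0 were called. Inside 1.5-fold lay 8 of the 12, against 98.8% of all genes.

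Metabolic lists varied in how closely they were bounded. All 19 cholesterol synthesis genes, all 15 measured genes of the urea cycle and amino acid catabolism and all 24 cell cycle genes lay inside 1.5-fold. Full counts in lists of this size are near the general share, since 98.8% of all genes lay inside 1.5-fold. By contrast 9 of 14 genes of gluconeogenesis and glycogen lay inside it, with a median half-width of 0.32. The cell cycle list had low signal, with mean levels of 4.66 and 4.67 in the virgin arms and 3.99 in both pregnant arms. Its narrow intervals therefore bound the signal more than the transcripts. Of the other lists, 14 of 18 fatty acid synthesis genes, 29 of 34 PPARA and fatty acid oxidation genes, 17 of 20 bile acid genes, 15 of 20 iron and heme genes and 23 of 25 cytochrome P450 genes did. Sqle, an enzyme of cholesterol synthesis, had an interval from 1.18-fold lower to 1.15-fold higher. G6pc, the enzyme that releases glucose from the liver, read 10.80, 8.98, 5.23, 8.05 and 9.36 in pregnant micro ZnO mice, the lowest in replicate 3, and its pooled interval ran from -0.04 to 1.51. Cyp7a1, the rate-limiting enzyme of bile acid synthesis, was likewise lowest in that mouse, at 6.01, and its interval ran from -0.02 to 1.43. Without the 2 pregnant mice these differences were 0.23 (-0.27 to 0.73) and 0.22 (-0.22 to 0.66).

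The bounds can be set beside a difference that was called in the same series. In virgin mice outside the 23 arrays, formulation against untreated gave 5239 calls (22.4% called; the spread came from all 46 arrays), and the 50 largest rises and 50 largest falls were taken as a scale of effect. Their median size was 1.04 on the log2 scale. Between nano and micro ZnO the same 100 transcripts differed by a median of 0.15, and for 98 of the 100 the far end of the pooled interval was smaller than the transcript's own formulation change. The 100 were chosen for their large changes, the smallest 0.63, and the median far end was 0.47, so a high count was built in. The formulation changes are estimates without intervals from virgin mice, set beside bounds pooled over both experiments. Among the 50 rises 25 lay inside 1.5-fold, the median difference was 0.14 (0.21 virgin, -0.03 pregnant), and 10 higher and 8 lower genes had an unadjusted p under 0.05. The 10 were 6 without virgin micro ZnO replicate 2 or virgin nano ZnO replicate 4 and 16 without pregnant micro ZnO replicate 3. Among the 50 falls 42 lay inside 1.5-fold and the median was 0.05, or -0.08 without pregnant micro ZnO replicates 3 and 4.

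Set against untreated virgin mice in the fit of all 8 groups, 381 probe sets were called for micro ZnO (1.63% called) and 1782 for nano ZnO (7.61% called). Against virgin formulation mice the order was the reverse, with 1166 for micro ZnO (4.98% called) and 392 for nano ZnO (1.67% called). In pregnant mice 146 were called for micro ZnO (0.624% called) and 32 for nano ZnO (0.137% called) against untreated. Against pregnant formulation mice limma called 21 for micro ZnO (0.0897% called) and 0 for nano ZnO (0% called), with 1920 and 894 at an unadjusted p under 0.05. These comparisons share their control mice, and their counts are no test of a difference between the particles. The direct comparison in virgin mice had 755 probe sets at an unadjusted p under 0.05 and limma called none.

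The transcripts with the smallest pooled p had small differences in both experiments. Homez, a homeodomain leucine zipper gene, had the smallest, with a difference of 0.33 (0.19 to 0.46; unadjusted p = 3.22e-05, limma adjusted p = 0.755). In virgin mice it ran from 5.22 to 5.63 after micro ZnO and from 5.71 to 5.88 after nano ZnO, and the groups did not overlap. Virgin arms did not overlap for 21 probe sets with nano higher (0.0897%) and 20 with nano lower (0.0854%), and pregnant arms for 47 (0.201%) and 21 (0.0897%). Pregnant micro ZnO mice read 4.50, 4.66, 4.33, 4.11 and 4.55, and 4 of 6 nano ZnO mice, which ran from 4.59 to 4.95, lay above them all. Even for Homez the interval stayed inside 1.5-fold. Tuft1 (0.37), Dusp4, another MAP kinase phosphatase (0.33), and Olfr653, an olfactory receptor gene of dim signal (0.24), followed on the higher side.

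On the lower side the smallest p values were those of Catsper2, a subunit of a sperm calcium channel (-0.31), Dhrs9, a retinol dehydrogenase (-0.27), Rps9, a ribosomal protein (-0.19), and Rpap3, a co-chaperone in polymerase assembly (-0.28). Rps9 ran from 9.66 to 9.80 and from 9.36 to 9.79 in virgin micro and nano ZnO mice, with 5 of 6 nano ZnO values below every micro ZnO value. Its pregnant micro ZnO values were 9.44, 9.33, 9.25, 9.44 and 9.22, again above 5 of 6 nano ZnO values. All 8 of these transcripts had limma adjusted p values from 0.755 to 0.909 and intervals inside 1.5-fold.

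The comparison within pregnant mice had its smallest p in Ctla2a, a protease inhibitor gene, at -0.64 (-0.91 to -0.37, unadjusted p = 4.55e-05, limma adjusted p = 0.604). Micro ZnO mice read 3.15, 3.38, 3.73, 3.49 and 3.68 and nano ZnO mice ran from 2.65 to 3.12, without overlap. In virgin mice the Ctla2a difference was 0.24 (-0.01 to 0.50), and its signal was dim throughout. Rxrg, a retinoid X receptor, was 0.46 higher in pregnant mice (0.25 to 0.66) and -0.13 in virgin mice (-0.33 to 0.06). In virgin mice Slc3a1, an amino acid transporter subunit, differed by -0.56 (-0.84 to -0.27) against -0.05 (-0.34 to 0.25) in pregnant mice, and Psrc1 by 0.34 (0.16 to 0.52) against -0.02 (-0.20 to 0.17).

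**Figure D5:**
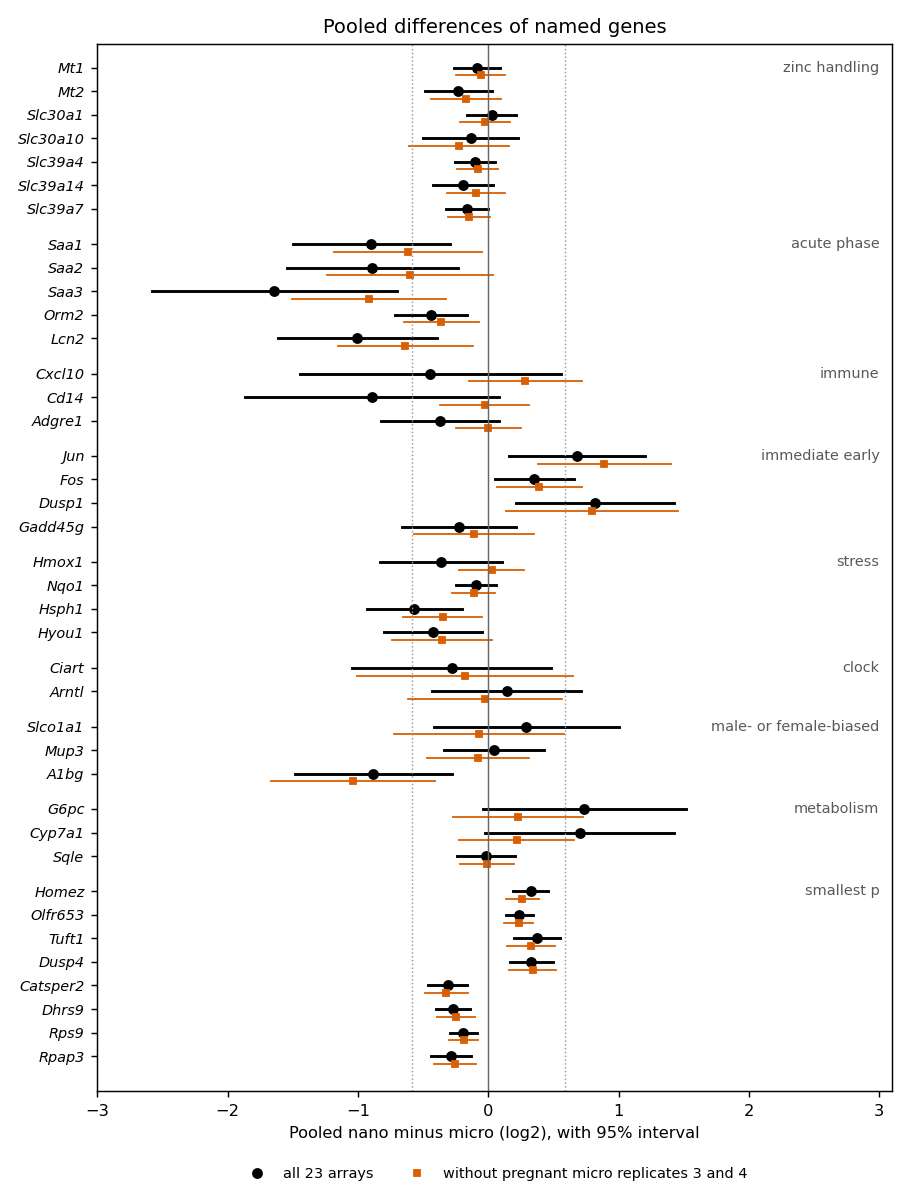
Pooled nano minus micro on the log2 scale (horizontal axis) with its 95% interval for 39 named genes, from all 23 arrays (black) and without pregnant micro ZnO replicates 3 and 4 (orange). Dotted lines mark 1.5-fold: zinc genes lie inside them except Slc30a10 without the 2 arrays, and the points of the acute-phase genes lie left of 0.

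For some transcripts a 2-fold difference lies within the interval. The pooled interval passed 2-fold for 44 probe sets, of which 32 allowed more than 2-fold lower, 13 more than 2-fold higher and 1 both. The 44 became 33 without pregnant micro ZnO replicates 3 and 4. With 1 array left out they became 28 without pregnant micro ZnO replicate 3 and 73 without pregnant micro ZnO replicate 2. They became 67, 68 and 69 without virgin nano ZnO replicates 4, 5 and 6. For 28 of the 44 the interval crossed 0, and 16 had an unadjusted p under 0.05. The lower side held Saa3, Saa1, Saa2, Lcn2, Cd14 and Cxcl10, and the higher side held Dusp1, Jun, G6pc and Cyp7a1. The widest interval was that of BC023105, an unnamed transcript, from 2.11-fold lower to 2.43-fold higher, with pregnant micro ZnO replicate 3 at 8.99 and the other 4 of its arm from 2.11 to 3.29. Its pooled difference of 0.10 became 0.69 without that mouse. The interval passed 3-fold for 4 probe sets, those of Saa3, Cd14, Lcn2 and the chemokine gene Cxcl13, the last of them named after its values were seen.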

How the data were processed

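Liver RNA of each mouse was hybridised to its own Affymetrix array. The authors deposited RMA values on a log2 scale, per the submitters' processing notes, where no version stands. RMA as usually run includes quantile normalization, so a change is relative to the rest of the array and large ones can be compressed. Array medians differ between the experiments, so levels were compared only within an experiment. The values came without detection calls or scan dates.

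Of 35512 probe sets, the 23410 with a gene symbol were tested, and 21789 of these have 1 symbol. A gene is its brightest 1-symbol probe set (19938 genes). limma 3.58.1 in R 4.3.3 fitted nano against micro with experiment as a block, a 4-group model for each experiment and their difference, and an 8-group model for comparisons with untreated mice. Tests were two-sided with Benjamini-Hochberg adjustment over all tested probe sets, calls were made at an adjusted p under 0.05, and intervals are 95% moderated ones that assume 1 spread per transcript in both experiments. Array measures were compared by exact permutation tests.

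The members and lists were chosen with earlier results of these data known. Genes were named by rule: the 10 smallest p values each way (no probe set being called), the 3 smallest of the other comparisons, fixed zinc and liver genes, up to 4 members of each list by p, and the 5 widest intervals; the text prints part of them. Alternatives were dim probe sets left out, all probe sets, an intensity trend with robust moderation, array weights, quantile normalization within or across experiments, all 46 arrays, a replicate block, interquartile range or clock score as a covariate, other margins, a Bonferroni interval, calls of at least 1.5-fold, and arrays left out. The procedure was run on simulated data with independent normal noise and 1 spread per probe set in all groups. That run does not test how the intervals hold with unequal spreads or genes that move together.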

Additional observations from a re-analysis of the deposited data

Results flagged for a closer look

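A sample was flagged where its gap to the nearest sample of its group passed Dixon's 95% critical value for the group's size. Such samples numbered 13 among 244 groups of values examined, or 5.33%. Chance alone gives about 1 in 20, but some of these genes were named for wide intervals, so that rate is no reference here. The rule looks at 1 gap, so 2 mice that lie apart together, such as pregnant micro ZnO replicates 3 and 4 for Cd14, can go unflagged. The flagged samples fell 3 times in virgin micro ZnO, 4 in virgin nano ZnO, 2 in pregnant micro ZnO and 4 in pregnant nano ZnO. Values are RMA log2 intensities, and the cause was not tested for any of them.

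BC023105 stood at 8.99 in pregnant micro ZnO replicate 3, with the nearest mouse of that arm at 3.29. Pregnant nano ZnO replicate 1 was highest of its arm for Cd14 at 5.38 (nearest 4.04) and for Cxcl10 at 6.74 (nearest 5.09), and lowest for Cyp7a1 at 8.46 (nearest 9.84). In virgin micro ZnO, replicate 3 was lowest for Cxcl10 at 4.36 (nearest 4.62), and replicate 2 was highest for Cxcl9, a chemokine gene, at 6.14 (nearest 5.28).

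Virgin micro ZnO replicate 6 was lowest for Cyp1a2 at 10.38 (nearest 10.84). Virgin nano ZnO replicate 4 was highest for Cyp4a14, a fatty acid hydroxylase, at 10.73 (nearest 8.90) and for Dusp1 at 9.93 (nearest 8.69). Virgin nano ZnO replicate 6 was highest for Slc39a14 at 9.28 (nearest 8.85) and for Slc3a1 at 9.47 (nearest 8.98), and pregnant micro ZnO replicate 1 was lowest for Slc3a1 at 9.58 (nearest 9.93). The interquartile range of a whole array was highest in pregnant nano ZnO replicate 2 at 3.23 (nearest 3.14).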

How the results depend on the processing

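The count of called probe sets was 0 for the pooled, pregnant and between-experiment comparisons under every alternative run, with an unadjusted p under 0.05 for 2081 pooled probe sets without pregnant micro ZnO replicates 3 and 4, for 1865 with array weights and for 698 with dim probe sets left out, against 1188. In virgin mice, leaving out 1 array in turn gave 0 to 1 calls, the 1 being A1bg without virgin nano ZnO replicate 3. Of the 23410 probe sets, those not inside 1.5-fold numbered 210 with array weights to 385 with trend and robust moderation, against 322, and 234 to 378 with 1 array left out. With all probe sets, named or not, 1946 of 35512 were not inside 1.5-fold and 157 not inside 2-fold, and with dim probe sets left out 250 of 14046 were not inside 1.5-fold. Over 58 named genes and 11 alternatives, 630 values held 18 changes of sign, 5 of them of a difference over 0.2, and 0 calls. Same-numbered mice correlated at -0.15 to -0.0086 in virgin mice and at -0.12 to 0.23 in pregnant mice, with 3 of 11 pairs over 0.1. These values were not taken on whole-array levels, which correlated at 0.981 to 0.989 in virgin and 0.975 to 0.990 in pregnant mice. So few pairs cannot show whether a replicate number stands for a shared day or order of processing. With the number as a replicate block 0 probe sets were called, 322 were not inside 1.5-fold and 1332 had an unadjusted p under 0.05. The pooled cytokine median of -0.27 was -0.12 with array weights or without pregnant micro ZnO replicate 3 and 0.06 without replicates 3 and 4. The interferon median of -0.15 was -0.0079 and 0.0016 in the last 2 of these. Signal near background limits what dim probe sets can show.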
